A study of Homo sapiens with 9 samples.

Results

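The genes described here are 43 genes of DNA replication and S phase, taken by name from the 26475 genes that each library's table lists. All 43 were found, and all passed the filter on low counts, with at least 202 counts each in every library of the replicated set. They were measured by sequencing polyA RNA of Hep3B, a human hepatoma cell line known to lack a working retinoblastoma protein, held in hypoxia for 6 h, so that the controls had low oxygen too. The cells received DMSO, the solvent, or a compound that the labels call DHE without giving its full name or a concentration. A replicated set has 3 libraries with DMSO and 3 with DHE. A dose set has 1 library with DMSO, 1 with DHE at a dose labelled high and 1 at a dose labelled low. No label ties the replicates to separate cultures, so the p-values reflect the spread between these libraries, which may be technical. The data come from a single cell line.

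Replication begins when the origin recognition complex, CDC6 and CDT1 load the ring of MCM2 to MCM7 onto DNA in G1, a step that geminin (GMNN) restrains by binding CDT1. CDC7 and cyclin-dependent kinases then turn the loaded rings into active helicases by adding CDC45 and the GINS complex, and the polymerases follow. Transcription of many of these genes is driven by E2F factors, which the retinoblastoma protein holds back until cyclin-dependent kinases inactivate it. In cycling cells many of these transcripts are highest around the G1/S boundary. In bulk RNA, fewer cells in S phase and less of a transcript per cell cannot be told apart.

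Promoter sequences bear on these genes because E2F sites are a shared feature of the family. The RefSeq windows of GRCh38.p14, each of 250 bases before and 50 after an annotated start, held 38 of the 43 genes; MCM4, MCM5, GINS4, CCNE2 and RPA2 had no entry. An exact E2F motif, TTTCGCGC or TTTGGCGC on either strand, was found for 13 of these 38 genes (34.2%), against 1.40% of all 27305 genes in the table. The NF-Y box CCAAT, on either strand, was found for 24 of 38 (63.2%) against 39.7% of all genes, and the CHR element TTTGAA, a hallmark of promoters active in G2 and M phase, for 1 of 38 (2.63%), RRM1, against 18.2%. In MCM6 the matches to both spellings overlap, on opposite strands, and each of its 2 capital runs holds 1 of each. A match is a string of letters and not a measured binding site.

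The sequences that follow are the last 160 bases before the start of 3 genes that rose and hold an E2F motif, in capitals, and of CLSPN, the gene with the largest rise, which holds no exact E2F motif and whose capitals mark its 3 NF-Y boxes (GRCh38.p14, 5′ to 3′ along the gene).
E2F1, chr20:33686386-33686545, minus strand: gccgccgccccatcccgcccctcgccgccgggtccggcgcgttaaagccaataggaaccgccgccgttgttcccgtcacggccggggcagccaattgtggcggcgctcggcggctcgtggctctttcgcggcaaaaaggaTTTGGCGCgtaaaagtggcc
CDC25A, chr3:48188418-48188577, minus strand: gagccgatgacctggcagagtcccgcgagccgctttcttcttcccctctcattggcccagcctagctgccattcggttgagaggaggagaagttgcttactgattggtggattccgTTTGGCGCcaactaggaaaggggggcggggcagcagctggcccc
MCM6, chr2:135876444-135876603, minus strand: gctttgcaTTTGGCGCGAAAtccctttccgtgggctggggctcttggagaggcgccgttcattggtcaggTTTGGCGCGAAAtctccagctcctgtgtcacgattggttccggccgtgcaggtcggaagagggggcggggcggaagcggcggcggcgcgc
CLSPN, chr1:35769979-35770138, minus strand: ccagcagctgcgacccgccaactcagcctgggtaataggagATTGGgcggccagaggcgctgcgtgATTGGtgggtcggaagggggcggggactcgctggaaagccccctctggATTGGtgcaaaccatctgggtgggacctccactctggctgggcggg

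Library totals ran from 22167516 to 36267216 counts over the 9 libraries. DHE replicate 1 stood apart: a chi-square of its counts against DHE replicates 2 and 3 averaged 30.9 and 36.4 per gene, and that between replicates 2 and 3 only 5.83. DMSO replicate 1 did so to a lesser degree, at 13.9 and 15.65 against DMSO replicates 2 and 3, with 9.12 between those. Of the controls, DHE replicate 1 was nearest to DMSO replicate 1, at 31.5 against 50.8 and 51.7 for DMSO replicates 2 and 3. Of 9 hepatocyte and hepatoma markers, all were well counted and 5 rose and 3 fell, with a summed level of 18266 to 18859 CPM with DMSO and 16788 to 17579.8 with DHE (CPM is a count scaled to a common library size, here TMM-corrected). Markers of other cell types also differed between the groups. The 6 leukocyte markers summed to 96.5 to 105 CPM with DMSO and 54.7 to 63.9 with DHE, nearly all from CD68 and LYZ, while PTPRC and CD3E had at most 4 counts in a library. The 6 fibroblast and stellate markers summed to 72.4 to 73.9 and 89.7 to 93.2 CPM, with DCN and ACTA2 at 0, and the 5 endothelial markers to 3.15 to 4.20 and 1.57 to 2.22 CPM, with KDR at 0. Of the markers tested, 2 of 3 leukocyte genes and the 1 endothelial gene fell, and 1 of 3 fibroblast genes rose. The part of these markers in the results on replication genes was not tested.

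Replication genes moved in both directions with DHE in the replicated set. At an adjusted p under 0.05 in edgeR's quasi-likelihood test, 11 of the 43 genes were higher and 5 lower. The genes that rose were CLSPN, CDC25A, E2F1, CCNE2, GINS3, CCNE1, MCM4, CDC7, GMNN, FEN1 and MCM6, and those that fell were GINS4, CDT1, TK1, RFC1 and TYMS. Across all 14492 genes tested, 13.4% rose and 12.8% fell, 26.2% in all, against 25.6% higher and 11.6% lower here. All changes were small: the called ones ran from 0.15 to 0.47 in absolute log2 fold change, and none of the 43 reached 1.5-fold. The median log2 fold change of the 43 genes was 0.05, where all genes tested had -0.0033. Their summed level was 3769 to 3835 CPM with DMSO and 3826 to 3921 CPM with DHE, ranges that overlap.

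In 13 genes every DHE library lay above every DMSO library, and in 8 every one lay below; over all genes tested these shares were 20.8% and 20.8%. Besides the 16 called genes, these were MCM10 and CHEK1 above and ORC1, PRIM1 and RFC3 below. With 1 library left out, 6 to 9 of the 43 were higher and 2 to 7 lower: 6 and 2 without DMSO replicate 1, 8 and 2 without DMSO replicate 2, 7 and 2 without DMSO replicate 3, 9 and 3 without DHE replicate 2, and 8 and 7 without DHE replicate 1, the library that stood apart. On log2(TPM + 1) with limma, 0 genes passed in either direction, with 9 higher and 0 lower at an unadjusted p under 0.05. With each library first centred on its median, an alternative added after seeing the data, 8 rose and 5 fell on that scale (TPM is a level scaled for transcript length and library size).

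**Figure D1:**
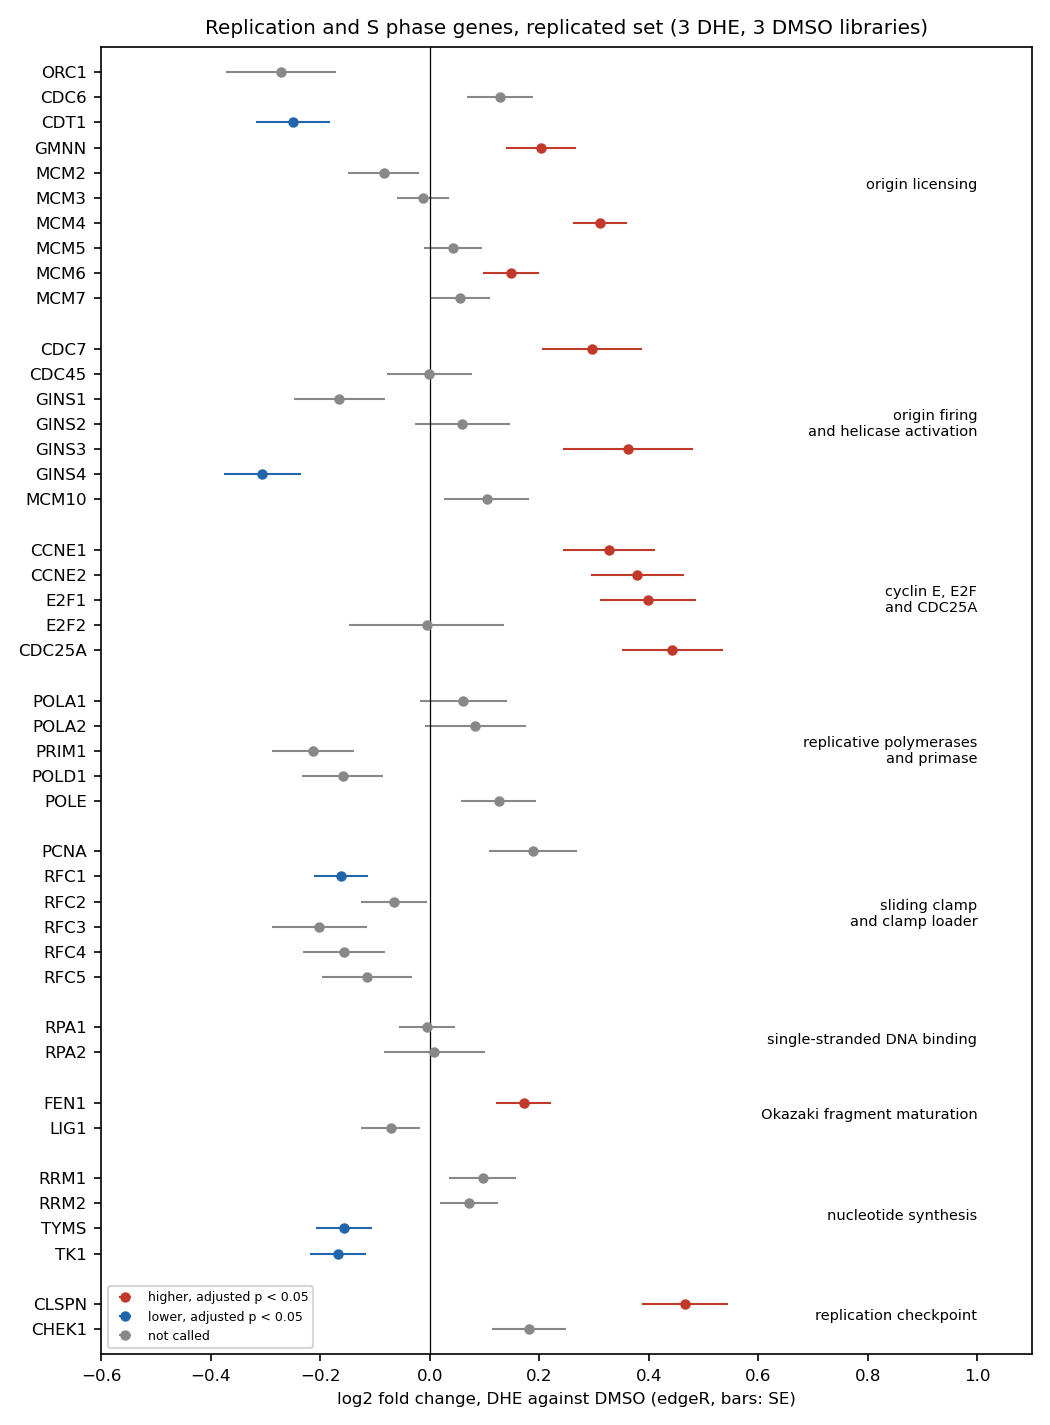
Log2 fold change of each of the 43 genes between 3 DHE and 3 DMSO libraries, grouped by role, with bars for the standard error from edgeR; red genes were called higher, blue genes lower. The cyclin E, E2F and CDC25A group holds 4 of the 11 rises, while the 5 clamp loader genes all lie below 0, with only RFC1 called.

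Of the 5 genes grouped here as cyclin E, E2F and CDC25A, which are CCNE1, CCNE2, E2F1, E2F2 and CDC25A, 4 rose and 0 fell. That is 80% and 0%, beside 13.4% and 12.8% of all genes tested, in a small group chosen with earlier results of these data known. Their median was 0.38, and the 5 genes together measured 77.9 to 84.2 CPM with DMSO and 103 to 105 with DHE. CDC25A encodes the phosphatase that activates CDK2 by removing inhibitory phosphates, and lies on chromosome 3 from 48157146 to 48188417 in GRCh38.p14. It measured 13.7, 12.8 and 12.6 CPM with DMSO and 18.1, 18.6 and 16.5 CPM with DHE, so that the lowest DHE library lay clearly above the highest control. Its rise was 1.36-fold (log2 fold change 0.44 ± 0.09, SE, adjusted p = 0.00349). E2F1, the activating transcription factor of S phase genes on chromosome 20 from 33675477 to 33686385, measured 26.9, 25.2 and 30.1 CPM with DMSO and 33.2, 36.4 and 38.8 CPM with DHE. It rose 1.32-fold (log2 fold change 0.40 ± 0.09, SE, adjusted p = 0.00492), with DHE replicate 1 the lowest of the DHE libraries.

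Both genes for cyclin E, the partner of CDK2 at the G1/S boundary, rose. CCNE2 measured 14.7, 15.5 and 14.6 CPM with DMSO and 20.1, 18.4 and 19.9 CPM with DHE, a rise of 1.30-fold (log2 fold change 0.38 ± 0.09, SE, adjusted p = 0.00582). CCNE1 measured 19.2, 18.2 and 19.5 CPM with DMSO and 24.7, 24.8 and 21.98 CPM with DHE, a rise of 1.25-fold (log2 fold change 0.33 ± 0.08, SE, adjusted p = 0.0124). In neither gene did the groups overlap. E2F2, an activating E2F like E2F1, measured 7.49, 6.10 and 7.27 CPM with DMSO and 8.08, 6.36 and 6.39 CPM with DHE, and its groups overlapped (log2 fold change -0.01 ± 0.14, adjusted p = 0.981). All 4 calls held when any 1 library was left out, with adjusted p from 0.00107 for E2F1 to 0.0494 for CCNE1.

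The 2 genes grouped here as replication checkpoint, CLSPN and CHEK1, lay above every control in all 3 DHE libraries. So did 20.8% of all genes tested. Only CLSPN was called, where 13.4% of all genes tested rose. In the wider list of fork protection and S phase checkpoint genes, described below, 1 rose and 7 fell of 22. CLSPN encodes claspin, the adaptor through which the kinase ATR activates CHEK1 at stalled forks, and lies on chromosome 1 from 35720213 to 35769978. It measured 29.01, 32.2 and 27.9 CPM with DMSO and 38.004, 41.9 and 43.04 CPM with DHE, with DHE replicate 1 again the lowest treated library. It rose 1.38-fold (log2 fold change 0.47 ± 0.08, SE, adjusted p = 9.65e-04), the largest change among the 43 genes, and the call held without any 1 library (adjusted p = 1.89e-04 to 0.00911). CHEK1, the checkpoint kinase itself, measured 35.7, 33.8 and 35.2 CPM with DMSO and 40.7, 40.6 and 37.5 CPM with DHE and did not pass the threshold (log2 fold change 0.18 ± 0.07, adjusted p = 0.0644).

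Among the licensing genes 3 rose and 1 fell of 10 (30% and 10%, beside 13.4% and 12.8% of all genes tested). CDT1, the loader of the MCM ring, measured 83.7, 82.9 and 94.9 CPM with DMSO and 67.9, 77.4 and 74.7 CPM with DHE and fell 1.19-fold (log2 fold change -0.25 ± 0.07, SE, adjusted p = 0.0165). GMNN, which encodes the CDT1 inhibitor geminin, measured 76.7, 76.4 and 76.5 CPM with DMSO and 96.9, 81.04 and 86.6 CPM with DHE and rose 1.15-fold (log2 fold change 0.20 ± 0.06, SE, adjusted p = 0.0331). The controls of GMNN lay within a narrow band, and DHE replicate 1 was the highest treated library. CDT1 was lowest in that same library. Without DMSO replicate 3 CDT1 was no longer called (adjusted p = 0.0846), and GMNN was lost without any 1 of the 3 DMSO libraries, DHE replicate 1 or DHE replicate 3 (adjusted p = 0.0623 to 0.0966).

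The ring of MCM2 to MCM7, the core of the replicative helicase, did not move as a unit. MCM4 measured 179, 191 and 187 CPM with DMSO and 235, 222 and 235 CPM with DHE, a rise of 1.24-fold (log2 fold change 0.31 ± 0.05, SE, adjusted p = 6.98e-04) whose call held without any 1 library (adjusted p = 3.69e-04 to 0.00650). MCM6 measured 160.3, 173 and 164 CPM with DMSO and 188, 176 and 187 CPM with DHE and rose 1.11-fold (log2 fold change 0.15 ± 0.05, SE, adjusted p = 0.0490), close to the threshold. The call of MCM6 ended without any 1 of the 3 DMSO libraries, DHE replicate 1 or DHE replicate 3 (adjusted p = 0.0514 to 0.176). The other 4 subunits overlapped between the groups. Their log2 fold changes were -0.08 for MCM2, -0.01 for MCM3, 0.04 for MCM5 and 0.05 for MCM7, with adjusted p from 0.369 to 0.866. Of the loading factors, ORC1, the largest subunit of the origin recognition complex, measured 15.6, 14.9 and 14.7 CPM with DMSO and 11.4, 13.96 and 12.1 CPM with DHE and lay below the controls in every DHE library without passing the threshold (adjusted p = 0.0638). CDC6, the ATPase that works with it, did not pass either (log2 fold change 0.13 ± 0.06, adjusted p = 0.141). By edgeR, ORC1 was called lower in 2 of 18 alternative fits, upper-quartile factors and without DHE replicate 2 (adjusted p down to 0.0323).

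In the group that activates the helicase 2 rose and 1 fell of 7 (28.6% and 14.3%, beside 13.4% and 12.8% of all genes tested). In it, 2 subunits of 1 complex went opposite ways. GINS3 measured 7.49, 8.72 and 9.44 CPM with DMSO and 11.4, 11.6 and 10.001 CPM with DHE and rose 1.28-fold (log2 fold change 0.36 ± 0.12, SE, adjusted p = 0.0397). GINS4 measured 36.8, 38.4 and 37.2 CPM with DMSO and 30.2, 31.9 and 28.7 CPM with DHE and fell 1.24-fold (log2 fold change -0.31 ± 0.07, SE, adjusted p = 0.00658), with every treated library below every control. Both encode subunits of the 4-part GINS complex, of which GINS1 (-0.17, adjusted p = 0.163) and GINS2 (0.06, adjusted p = 0.656) did not pass. Without DHE replicate 1 GINS1 was called lower by edgeR (adjusted p = 0.0413). CDC7, the kinase that phosphorylates loaded MCM rings, measured 16.9, 19.3 and 16.5 CPM with DMSO and 21.8, 20.2 and 22.7 CPM with DHE and rose 1.23-fold (log2 fold change 0.30 ± 0.09, SE, adjusted p = 0.0296). CDC45, the helicase cofactor, and MCM10, which helps to activate it, did not pass, at -0.0007 ± 0.08 and 0.10 ± 0.08 (adjusted p = 0.996 and 0.354). The call of GINS4 held without any 1 library (adjusted p = 0.00813 to 0.0343). GINS3 was lost without DMSO replicate 1 or 2 or DHE replicate 1 or 2 (adjusted p = 0.0817 to 0.148). CDC7 was lost without DMSO replicate 1 or 3 or DHE replicate 1 or 3 (adjusted p = 0.0507 to 0.112).

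Of the 5 polymerase and primase genes 0 passed by edgeR or by DESeq2 and 1 was lower by limma-voom, with 0 higher and 1 lower by edgeR at an unadjusted p under 0.05. That gene was PRIM1, the catalytic primase subunit, which measured 33.4, 32.5 and 34.4 CPM with DMSO and 30.3, 26.7 and 29.6 CPM with DHE (log2 fold change -0.21 ± 0.08, adjusted p = 0.0536). POLA1 and POLA2, of the polymerase that extends primers, were at 0.06 and 0.08, POLD1, of the lagging strand polymerase, at -0.16 and POLE, of the leading strand polymerase, at 0.13, with adjusted p from 0.135 to 0.617. PRIM1 lay close to the threshold and was called lower in 7 of 18 alternative fits, which were limma-voom, upper-quartile factors, at least 50 counts in 3 libraries, the replicate block, median-centred TPM, all 9 libraries together (adjusted p = 0.0196) and edgeR without DHE replicate 1 (adjusted p = 0.0330). Over all 18 its adjusted p ran up to 0.346. POLE passed without DHE replicate 1 (adjusted p = 0.00663), and POLD1 without DHE replicate 3 (adjusted p = 0.0272).

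PCNA, the sliding clamp that tethers polymerases, measured 129, 116 and 120.1 CPM with DMSO and 161, 127 and 129.7 CPM with DHE, the groups overlapping by a narrow margin (log2 fold change 0.19 ± 0.08, adjusted p = 0.104). The clamp loader is a complex of RFC1 to RFC5, and all 5 of its genes had a log2 fold change below 0, from -0.20 for RFC3 to -0.07 for RFC2, a sign they kept in all 18 alternative fits. RFC1 alone was called in the main fit. It measured 245, 237 and 228 CPM with DMSO and 217, 212 and 206 CPM with DHE and fell 1.12-fold (log2 fold change -0.16 ± 0.05, SE, adjusted p = 0.0287). Its call ended without DMSO replicate 1 or 2 or DHE replicate 2 or 3 (adjusted p = 0.0795 to 0.127). RFC3, RFC4 and RFC5 had adjusted p of 0.107, 0.146 and 0.329. By edgeR, RFC4 passed without DHE replicate 1 (adjusted p = 0.0342), and PCNA passed with the replicate block (adjusted p = 0.0160). RPA1 and RPA2, which coat single-stranded DNA, were both close to 0, at -0.0045 ± 0.05 and 0.0083 ± 0.09 (adjusted p = 0.960 and 0.959); 0 of these 2 passed by edgeR, unadjusted or adjusted, or by DESeq2.

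FEN1, the nuclease that trims Okazaki fragments, measured 89.04, 92.5 and 89.3 CPM with DMSO and 105, 102 and 98.4 CPM with DHE and rose 1.13-fold (log2 fold change 0.17 ± 0.05, SE, adjusted p = 0.0246). LIG1, the ligase that seals them, was at -0.07 ± 0.05 (adjusted p = 0.363). The call of FEN1 ended without DMSO replicate 1 or 3 or DHE replicate 2 (adjusted p = 0.0574 to 0.0922). Of the 4 enzymes that supply nucleotides 2 fell (50%, beside 12.8% of all genes tested), and both make thymidine phosphates. TK1, thymidine kinase, measured 188, 186 and 182 CPM with DMSO and 168, 156 and 171 CPM with DHE and fell 1.12-fold (log2 fold change -0.17 ± 0.05, SE, adjusted p = 0.0278). TYMS, thymidylate synthase, measured 75.7, 75.6 and 72.3 CPM with DMSO and 66.3, 66.9 and 67.4 CPM with DHE and fell 1.11-fold (log2 fold change -0.16 ± 0.05, SE, adjusted p = 0.0387). In both genes all treated libraries lay below all controls. TK1 was lost without any 1 DMSO library or DHE replicate 2 (adjusted p = 0.0575 to 0.128). TYMS was lost without any 1 of the 6 libraries (adjusted p = 0.0534 to 0.129). RRM1 and RRM2, the subunits of ribonucleotide reductase, did not pass, at 0.10 ± 0.06 and 0.07 ± 0.05 (adjusted p = 0.273 and 0.351).

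**Figure D2:**
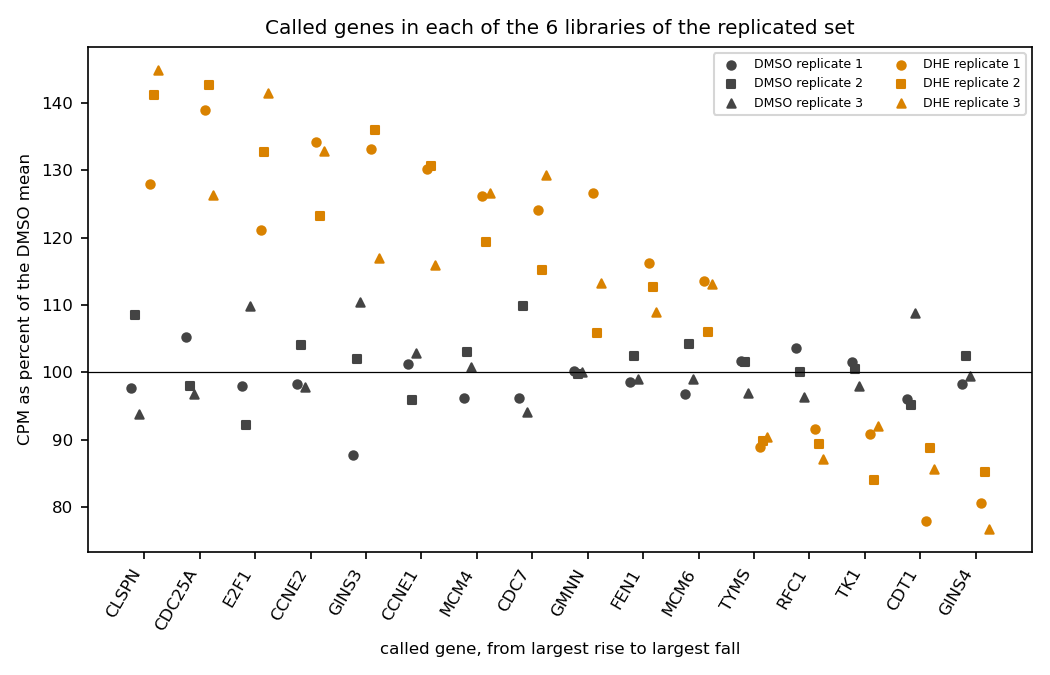
CPM of the 16 called genes in each of the 6 libraries of the replicated set, as a percent of the gene's DMSO mean (grey: DMSO, orange: DHE, shapes: replicate numbers). In all 16 genes the DHE libraries lie on 1 side of the DMSO libraries, with CLSPN and CDC25A at the left end of the rises and GINS4 at the right end of the falls.

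On the length-scaled TPM scale, where genes can be compared with each other, the 43 genes spanned a wide range in the DMSO libraries. MCM7 had the highest mean level, 272 TPM, before TK1 (232), PCNA (193), MCM3 (143) and MCM5 (138). E2F2 had the lowest, 2.28 TPM, after CLSPN (5.84), CDC25A (6.19) and GINS3 (7.09). The regulators that rose thus belonged to the less abundant transcripts, with CCNE1 at 18.6, CCNE2 at 9.95 and E2F1 at 18.4 TPM. Subunits of 1 complex differed widely in level: MCM4, which rose, had the lowest level of the ring at 66.5 TPM, and GINS3, which rose, the lowest of GINS, where GINS4, which fell, was at 17.1 and GINS2 at 35.6 TPM.

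The calls were then set beside the promoter motifs shown above. Over all genes tested, 13.4% rose and 12.8% fell. Of the 13 genes with an exact E2F motif 4 rose, GMNN, MCM6, E2F1 and CDC25A, and 0 fell, with a median log2 fold change of 0.08. Of the 25 without one 5 rose and 4 fell, with a median of -0.0045. GMNN and MCM6 kept their calls in only 7 and 6 of 18 alternative fits. The motif lay 20 bases before the start of E2F1, 44 before that of CDC25A and 80 before an alternative start of GMNN, and MCM6 held its 2 runs at 152 and 90 bases. It also began before the start in 6 of the 9 genes that were not called, at 4 bases in MCM3, 9 in MCM7, 18 in POLE, 42 in E2F2, 53 in POLA2 and 137 in POLA1. Of the 24 genes with an NF-Y box 5 rose and 2 fell, and of the 14 without one 4 rose and 2 fell. These counts describe the windows, come from small groups and were not tested.

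**Figure D3:**
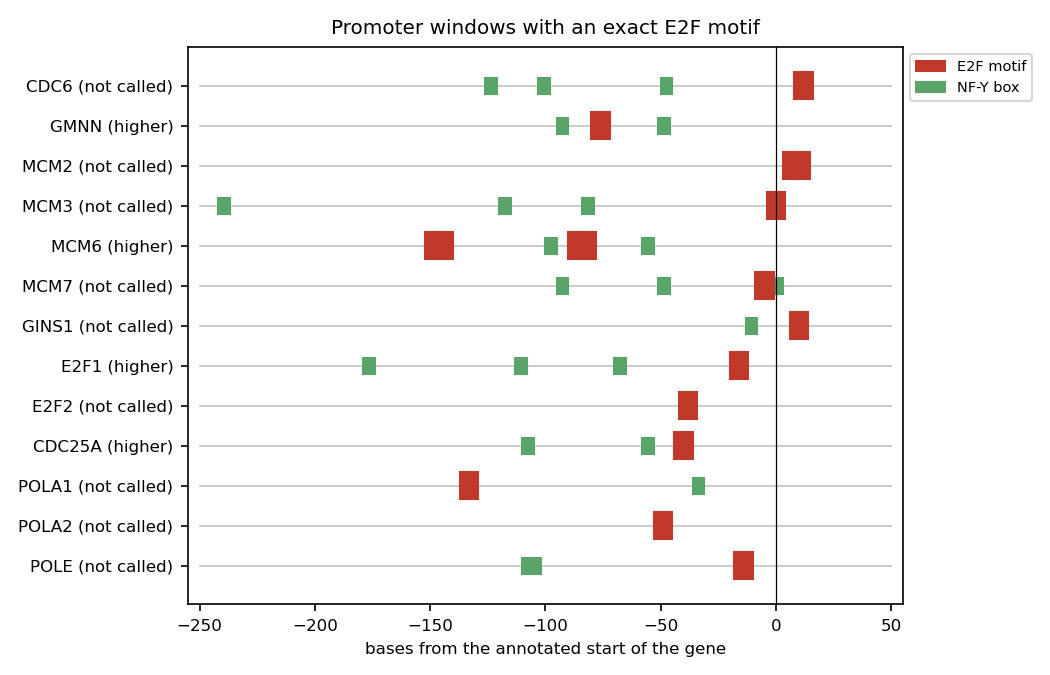
Positions of exact E2F motifs (red) and NF-Y boxes (green) in the promoter windows of the 13 genes with an E2F motif, in bases from the annotated start, with each gene's call. The E2F motif begins before the start in the 4 genes that rose and in 6 of the 9 that were not called. Of all genes tested, 13.4% rose and 12.8% fell.

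Other genes of the pathway also moved both ways. Of the remaining replication machinery 8 rose and 3 fell of 34 (23.5% and 8.82%, beside 13.4% and 12.8% of all genes tested, median -0.03). The topoisomerase gene TOP1, which relieves supercoils ahead of the fork, went from 139.5 ± 7.05 to 184 ± 5.995 CPM (mean ± SD, n = 3 each, 0.40 ± 0.05, adjusted p = 1.91e-04). RNASEH2C, of the nuclease that removes RNA from DNA, went from 44.2 ± 3.15 to 60.6 ± 4.14 CPM (0.45 ± 0.07, adjusted p = 5.77e-04). The helicase relatives MCM9 and MCM8, which act in recombination, rose as well, at 0.65 ± 0.12, adjusted p = 0.00231 and 0.31 ± 0.07, adjusted p = 0.00468. With 1 library left out, this list had 5 to 7 higher and 0 to 4 lower, with 0 lower without DMSO replicate 3, 5 and 0 without DHE replicate 3 and 1 lower without DMSO replicate 2.

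In the wider list of E2F, RB and G1/S control, which holds none of the 43 genes, 3 rose and 3 fell of 28 (median 0.03). That is 10.7% each way, where 13.4% of all genes tested rose and 12.8% fell. MYBL2, an E2F target that activates late S and G2 genes, went from 249 ± 5.47 to 201 ± 4.43 CPM (mean ± SD, n = 3 each, -0.31 ± 0.05, adjusted p = 5.37e-04), and CDKN2A, an inhibitor of CDK4 and CDK6, went from 307 ± 7.53 to 249 ± 7.94 CPM (-0.30 ± 0.05, adjusted p = 7.46e-04). CDK6, a G1 kinase, and E2F3, an activating E2F, rose (0.32 ± 0.06, adjusted p = 0.00172, and 0.23 ± 0.05, adjusted p = 0.00427). RB1, the retinoblastoma gene, was low at 3.46 ± 0.183 CPM with DMSO and 2.90 ± 0.410 CPM with DHE and did not pass (-0.25 ± 0.19, adjusted p = 0.352).

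Among genes of the nucleotide pool and chromatin assembly 4 rose and 2 fell of 18 (22.2% and 11.1%, beside 13.4% and 12.8% of all genes tested, median 0.01). IMPDH2, of guanine nucleotide synthesis, fell (-0.34 ± 0.05, adjusted p = 6.40e-04), and CTPS1, of cytidine nucleotide synthesis, rose (0.40 ± 0.08, adjusted p = 0.00406), as did the ribonucleotide reductase subunit RRM2B (0.37 ± 0.08, adjusted p = 0.00439) and UHRF1, which guides maintenance DNA methylation (0.27 ± 0.05, adjusted p = 0.00134). For fork protection and the S phase checkpoint 1 rose and 7 fell of 22 (4.55% and 31.8%, beside 13.4% and 12.8% of all genes tested, median -0.04). RAD9A, of the checkpoint clamp, went from 71.5 ± 4.07 to 52.7 ± 3.64 CPM (mean ± SD, n = 3 each, -0.44 ± 0.07, adjusted p = 4.33e-04). HUS1, of the same clamp, rose by edgeR (0.31 ± 0.09, adjusted p = 0.0193), and RAD1, also of it, did not pass (0.0005 ± 0.09, adjusted p = 0.997). FANCD2 (-0.27 ± 0.05, adjusted p = 0.00172), CDC25B (-0.27 ± 0.05, adjusted p = 0.00250) and BRCA2 (-0.26 ± 0.07, adjusted p = 0.0120) fell. The last list had 4 to 6 lower when a library was left out, 4 of them without DMSO replicate 2, and 0 higher without DMSO replicate 2 or 3.

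For comparison, of 26 genes of mitosis and G2/M 0 rose and 6 fell by edgeR (0% and 23.1%, beside 13.4% and 12.8% of all genes tested). Of the 26, 0 were higher at an unadjusted p under 0.05 by edgeR and 0 by DESeq2. Their median was -0.04, and they summed to 3297 to 3417 CPM with DMSO and 3169.8 to 3249 with DHE. The count fell to 3 without DMSO replicate 1, DMSO replicate 3 or DHE replicate 2. The difference between the mitosis genes and the 43 replication genes was not tested.

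The dose set has 1 library a group and hence no replicate check. In it, more of the 43 genes were past 1.5-fold at the dose labelled low than at that labelled high. The same was true of all genes. Both ratios share the same DMSO library. The median log2 ratio was 0.05 for high and -0.10 for low, where all 13468 genes that reached 20 counts in some library had 0.0025 and 0.0076. At high, 0 of the 43 were past 1.5-fold in either direction, where 4.01% of all genes were higher and 8.92% lower. At low, 1 of the 43 was higher and 5 lower, smaller shares than the 9.5% and 14.3% of all genes. No gene of the 43 was past 1.5-fold the same way in both libraries, as 3.01% of all genes were upward and 6.81% downward. In 37 of 43 genes the library labelled low had the lower level of the 2, beside 6631 of all 13468 genes. It did so in all 26 mitosis genes too. The median difference (low minus high) was -0.16 for the 43 genes, -0.24 for the mitosis genes and 0.0045 for all genes. Scaling by library totals in place of TMM moved the median of all genes to 0.15 for low. The counts lower at low were then 33 of 43 and all 26 mitosis genes, and the count over all genes was not taken. The median of the 43 genes for low became 0.038. Hepatocyte markers were mostly lower in both DHE libraries, with a median of -0.50 for high and -1.11 for low over 9 genes. The medians of the other markers counted there were -0.51 and -0.78 over 3 leukocyte genes, -1.03 and -0.95 over 3 fibroblast genes, and -1.22 and -1.33 for 1 endothelial gene. The fibroblast genes went both ways, with 1 of the 3 above its control at high (0.53) and 1 at low (1.38). The fibroblast markers summed to 20.3 TPM with DMSO, 26.8 at high and 47.3 at low. The part of all these markers in the ratios was not tested.

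In the library labelled low 6 genes were past 1.5-fold, and they are named for that value. CDC6 measured 75.7 CPM with DMSO, 99.1 in the library labelled high and 136 in that labelled low. It was thus higher by 1.31-fold (95% interval 1.23 to 1.39) and 1.80-fold (95% interval 1.70 to 1.91); the intervals are exact binomial and cover counting error only. The other 5 lay below the control. CCNE1 measured 20.6 CPM with DMSO, 18.5 in the library labelled high and 12.01 in that labelled low, lower by 1.72-fold (95% interval 1.48 to 1.99) in the last. MCM3 was 1.69-fold (95% interval 1.62 to 1.76) lower there, TK1 1.61-fold (95% interval 1.53 to 1.69), E2F2 1.57-fold (95% interval 1.26 to 1.96) and MCM2 1.54-fold (95% interval 1.47 to 1.62). In the library labelled high the same 5 genes had log2 ratios of -0.16, -0.30, -0.25, -0.29 and -0.06. CDT1 was close to that fold in both libraries, at -0.50 and -0.56. MCM4, the ring subunit that rose in the replicated set, was at 0.29 and 0.01. With library totals only CCNE1 and MCM3 were past 1.5-fold lower in the library labelled low, and CDC6 and CCNE2 higher, CCNE2 at 0.64 and 0.62 in the library labelled high and that labelled low; RRM2 passed at high (0.65).

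The 2 sets have different controls, so the calls of the replicated set could be looked up in the dose set. Those controls were unlike in hepatocyte and hepatoma markers. These summed to 36192 TPM in the dose-set DMSO library and to 12101 to 12980 TPM in the replicated DMSO libraries. They summed to 18836 TPM in the library labelled high and 10421 TPM in that labelled low. The part of this difference in the ratios was not tested. Of the 11 genes that rose 9 had a ratio above 1 at high and 7 at low. The 7 above 1 in both were CCNE2, CDC25A, CDC7, FEN1, GINS3, GMNN and MCM4 (63.6%), beside 67.7% of the 1909 called genes of the whole table that rose and were also in the dose set. Of the 5 genes that fell, CDT1, TK1 and TYMS were below 1 in both, beside 69.1% of 1792. CCNE2 and CDC25A had log2 ratios of 0.56 and 0.48, and of 0.43 and 0.29. E2F1 and CCNE1 went the other way, at -0.15 and -0.18, and -0.16 and -0.78. CLSPN, the largest rise of the replicated set, was at 0.19 and -0.09, the last turning to 0.05 with library totals.

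**Figure D4:**
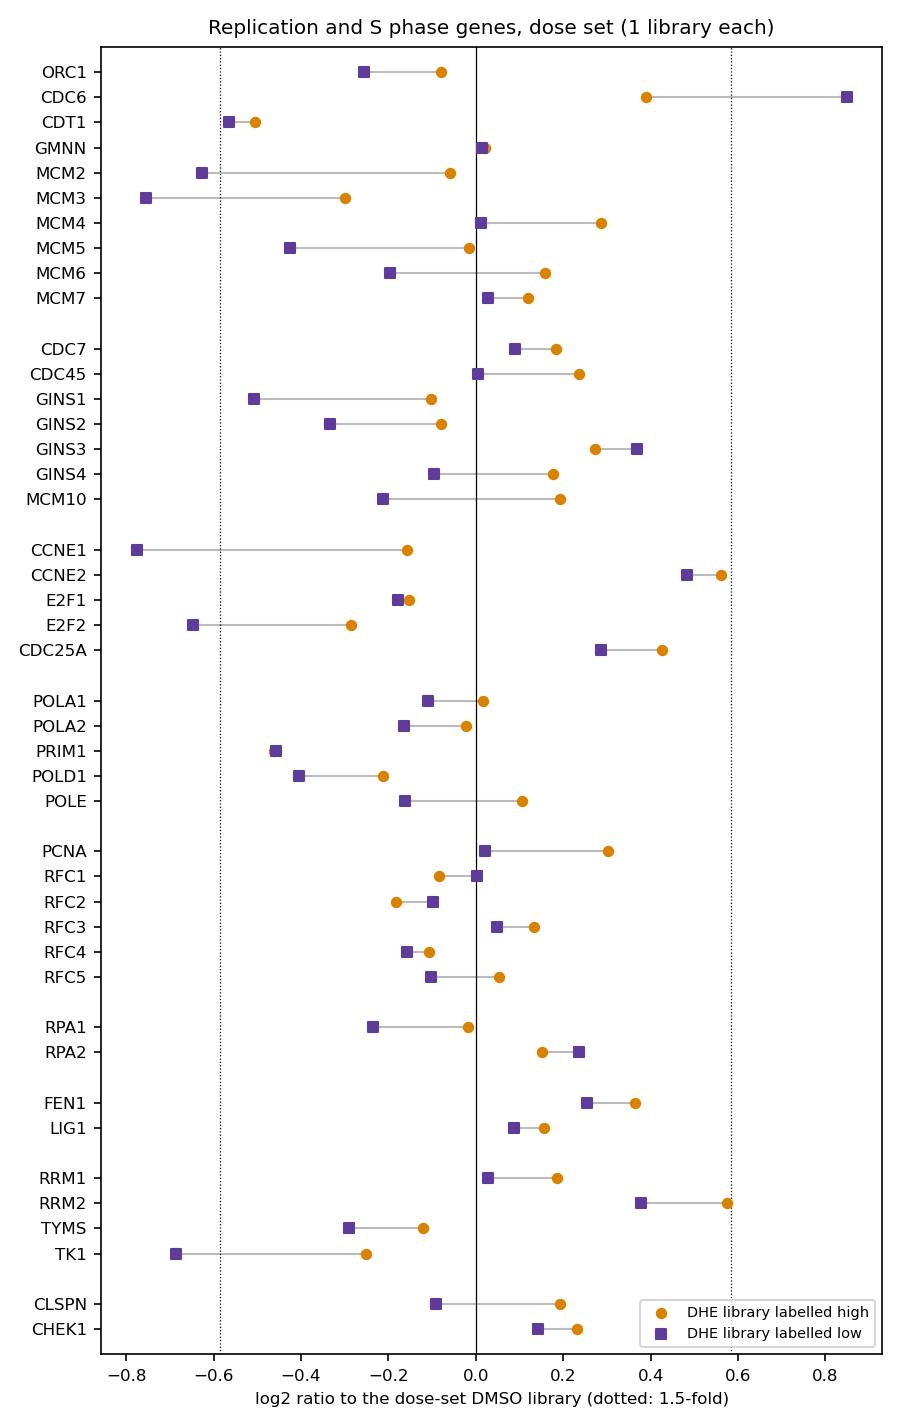
Log2 ratio of each of the 43 genes to the DMSO library of the dose set (orange: DHE labelled high, purple: labelled low, 1 library each; dotted lines at 1.5-fold). The purple point lies to the left of the orange one in 37 of 43 genes, beside 6631 of all 13468 genes of the dose set. Only CDC6, CCNE1, MCM3, TK1, E2F2 and MCM2 pass a dotted line.

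The 16 calls of the replicated set differed in how often they held. Over 18 alternative fits all 16 genes kept their direction. CLSPN, CDC25A, CCNE2 and MCM4 were called in all 18 but those on uncentred log2(TPM + 1) and log2(TPM + 0.1). E2F1 and GINS4 were also lost when the dose set entered the fit with the set as a covariate (adjusted p = 0.162 and 0.132), and CCNE1 as well (adjusted p = 0.694), which was also lost without both number-1 libraries. TYMS and MCM6 held in 6 of 18, GMNN in 7, CDC7 in 9 and TK1 in 10.

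**Figure D5:**
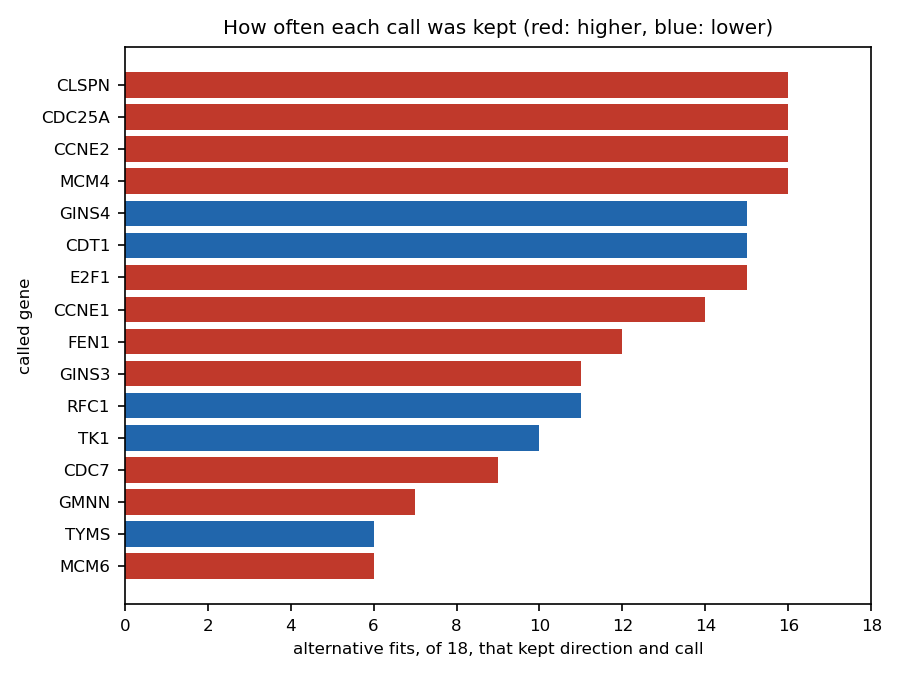
Number of alternative fits, of 18, in which each of the 16 called genes kept its direction and its call (red: higher, blue: lower). CLSPN, CDC25A, CCNE2 and MCM4 kept theirs in 16, and TYMS and MCM6 in 6.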

How the data were processed

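Per the labels' protocols, TRIzol was used to extract RNA, and NEBNext Ultra to make polyA libraries. Each of the 9 libraries has an RSEM table of genes with RefSeq transcripts on GRCh38, per the file headers and the submitters' processing notes. The deposited expected counts are estimated counts and are not normalized, per the file headers. The deposited TPM values are the authors' RSEM levels, corrected for length and depth, per the file headers. The deposited FPKM values were not used. The sources used here do not give the aligner, its version or a strand setting, so genes that overlap others or have close copies are uncertain.

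Expected counts were rounded. The groups were compared over all 14492 genes that passed edgeR's low-count filter with edgeR 4.0.16 in R 4.3.3 (TMM, two-sided quasi-likelihood F-test, Benjamini-Hochberg, threshold 0.05); the biological coefficient of variation was 8.37%. A count of 0 allows 3 counts, or 0.0827 to 0.135 CPM. The dose set was described by differences of log2 CPM (TMM, prior count 2) over genes reaching 20 counts in 1 of its libraries, with exact binomial 95% intervals. Alternatives used DESeq2 1.42.0 and limma 3.58.1, other scalings and filters, and each library left out. The edgeR code was run on simulated data in which all genes shared a common dispersion, a check of the code that is not evidence for any call here. Coordinates and promoters came from RefSeq tables of GRCh38.p14. All 43 genes matched by symbol and transcript for coordinates, and 38 by symbol for promoters.

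The members and lists were chosen with earlier results of these data known. The text accounts for all 43 genes, gives those past the threshold with all 6 values, and names the 4 genes with the smallest p in each of 4 other pathway lists. Figures were drawn with matplotlib 3.10.9.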

Additional observations from a re-analysis of the deposited data

Results flagged for a closer look

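In 3 of the 43 genes every DHE library of the replicated set lay on 1 side of its controls and both DHE libraries of the dose set on the other side of theirs, as log2 fold changes or log2 ratios to DMSO. CCNE1, a cyclin E gene, was at 0.33 ± 0.08 (SE) in the replicated set and at -0.16 and -0.78 for high and low, with ratios of 0.896-fold (95% interval 0.789 to 1.02) and 0.583-fold (95% interval 0.502 to 0.675). With library totals CCNE1 was at -0.08 and -0.63. E2F1, the activating factor, was at 0.40 ± 0.09 against -0.15 and -0.18, with ratios of 0.899-fold (95% interval 0.824 to 0.980) and 0.884-fold (95% interval 0.808 to 0.966); with library totals it was at -0.08 and -0.04. RFC3, of the clamp loader, was at -0.20 ± 0.09 (edgeR adjusted p = 0.107) against 0.13 and 0.05, with ratios of 1.10-fold (95% interval 0.944 to 1.28) and 1.03-fold (95% interval 0.883 to 1.21), and its counting intervals both include 1. The count of 3 is for TMM scaling: with library totals GINS4, which fell in the replicated set, was at 0.25 and 0.05 in the dose set and would join them. The share of all genes that went opposite ways like this was not counted. Of all genes called higher, 79.3% kept their direction at high, 71.7% at low and 67.7% at both. Of the 11 here, these shares were 81.8%, 63.6% and 63.6%. Loss of direction in the dose set was thus not particular to these genes. The difference between the sets was not tested. The dose set has 1 library a group, and the sources used here give no concentration for either set.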

How the results depend on the processing

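In the replicated set, 11 genes rose and 5 fell. DESeq2, limma-voom, library totals, upper-quartile factors, both other filters and median-centred TPM gave 8 to 11 higher and 4 to 7 lower. Limma on log2(TPM + 1) and on log2(TPM + 0.1) gave 0 and 0, with 9 and 10 higher and 0 lower at an unadjusted p under 0.05. In that scale the library medians were 3.75 and 3.70 for the number-1 libraries and 3.88 to 3.99 for the others, and centring gave 8 and 5. All 9 libraries with the set as a covariate gave 6 and 3. Leaving out 1 library gave 6 to 9 higher, 2 to 7 lower and a median log2 fold change of 0.02 to 0.06, and leaving out both number-1 libraries, an alternative added after seeing the data, 6 and 4; fewer libraries were tested there. The median stayed above 0 in these fits. With the replicate number as a block (replicate block), 12 rose and 7 fell, but no label says that equal numbers share a culture or day. Same-numbered deviations correlated at 0.26, 0.20 and -0.25, and not every sample correlated best with its own number. The number-1 libraries did correlate best with each other. With 3 libraries a group these correlations depend on each other, so they cannot decide whether the samples were paired. In the dose set, library totals in place of TMM turned the median for low from -0.10 to 0.038, as the median of all genes moved from 0.0076 to 0.15, and gave 2 of the 43 genes past 1.5-fold higher in each library and 2 lower in that labelled low. Past 2-fold, 0 of the 43 genes were left in either library.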
